A study of Mus musculus with 9 samples.

Results

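The 5 genes described here are Cd74, H2-Aa, H2-Ab1, H2-Eb1 and Ciita, which make or control the class II molecules of the major histocompatibility complex (MHC). They were picked by gene symbol and are 5 of the 31804 genes in the deposited table. Levels were measured by polyA RNA-seq in hippocampal tissue from male C57BL/6NCrl mice, an inbred strain. Each mouse received a recombinant adeno-associated virus in the dorsal hippocampus when 8 weeks old, and tissue was collected 3 weeks later. The 3 groups carried shRNA A against Camta1, shRNA B against Camta1, or a control shRNA without a target, and the series design gives 3 animals to each. A short hairpin RNA (shRNA) lowers the mRNA it matches, and Camta1 encodes a calmodulin-binding transcription activator. All groups, the controls included, had surgery and virus, so no untreated tissue is among them. The tissue was cut out by the mCherry fluorescence of the virus, a red marker protein, and holds infected and uninfected cells together. The sources used here do not name the promoter that drives the hairpins.

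Class II molecules show peptides from proteins that a cell has taken up to CD4+ T cells. H2-Aa and H2-Ab1 encode the alpha and beta chains of I-A, and H2-Eb1 encodes the beta chain of I-E. Mice of the C57BL/6 background carry a defective gene for the I-E alpha chain and put no I-E on the cell surface. Cd74 encodes the invariant chain, which occupies the peptide groove during assembly and steers the complex to endosomes. Ciita encodes the coactivator that is needed for class II transcription and that interferon gamma induces in many cell types. It binds no DNA itself and is held on class II promoters by RFX, CREB and NF-Y proteins, which occupy neighbouring elements called the X and Y boxes. In the healthy brain, class II is found mainly on macrophages and dendritic cells of the borders, and microglia, the resident macrophages, carry little until they are activated.

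RefSeq promoter windows on build GRCm38.p6, 250 bases before to 50 after the gene start, were at hand for 2 of the 5 genes, H2-Aa and H2-Eb1. They are shown because promoter elements of this kind are where CIITA acts on class II genes. Capitals mark GCAAC, a core of the X box, and ATTGG, the core of the Y box read on the strand of the gene.
H2-Aa, chr17:34287774-34288073, minus strand: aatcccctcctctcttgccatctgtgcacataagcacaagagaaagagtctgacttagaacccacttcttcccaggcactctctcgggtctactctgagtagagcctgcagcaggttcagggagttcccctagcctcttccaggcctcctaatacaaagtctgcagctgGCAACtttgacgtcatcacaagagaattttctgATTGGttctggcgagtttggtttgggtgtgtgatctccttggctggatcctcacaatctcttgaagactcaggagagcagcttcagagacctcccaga
H2-Eb1, chr17:34305617-34305916, plus strand: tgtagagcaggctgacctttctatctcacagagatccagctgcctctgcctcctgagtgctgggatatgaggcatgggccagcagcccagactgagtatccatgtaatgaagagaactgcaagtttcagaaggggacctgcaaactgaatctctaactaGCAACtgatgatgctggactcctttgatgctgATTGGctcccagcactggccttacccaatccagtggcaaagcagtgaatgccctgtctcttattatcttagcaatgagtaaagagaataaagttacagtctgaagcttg
GCAAC began 81 bases before the start of H2-Aa and 91 bases before the start of H2-Eb1. ATTGG followed 33 and 32 bases further on. Among all 32851 windows of this length, 35.2% held GCAAC and 37.4% held ATTGG on either strand, and 0.794% held both on one strand with ATTGG beginning 25 to 40 bases after GCAAC. On the strand of the gene, where the class II windows were searched for the pair, 0.39% of all windows held it. The search window was set after these sequences had been read. Of the 6 other class II loci with a window, H2-Oa, H2-Ob and H2-Eb2 held the pair. A match is a description of letters and shows no binding.

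Camta1, the target, was at 230, 174 and 254 CPM (counts scaled to library size) with shRNA A, 239, 145 and 266 CPM with shRNA B, and 427, 455 and 442 CPM in controls. All 6 shRNA libraries lay below every control, at a log2 fold change of -1.01 ± 0.22 (SE) with shRNA A and -1.02 ± 0.22 with shRNA B (edgeR adjusted p = 0.388 and 0.0776). DESeq2 called Camta1 lower with both hairpins and limma-voom with shRNA B. Each library held 29123744 to 38189288 counts, and 3 reads stood for 0.0776 to 0.102 CPM. The 7 neuron markers summed to 13056 to 14607 CPM in every library. Control replicate 3 stood apart in choroid plexus markers, which summed to 1039 CPM there and to 23.7 to 45.3 CPM in the other libraries. Control replicate 1 stood apart in markers of meninges and fibroblasts, at 57.6 CPM against 21.8 to 33.9 CPM elsewhere. The class II genes of these 2 controls lay between 0.102 and 3.59 CPM. H2 genes resemble each other, and reads that matched several of them could be lost or shared in the counting, whose settings are not known here.

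**Figure D1:**
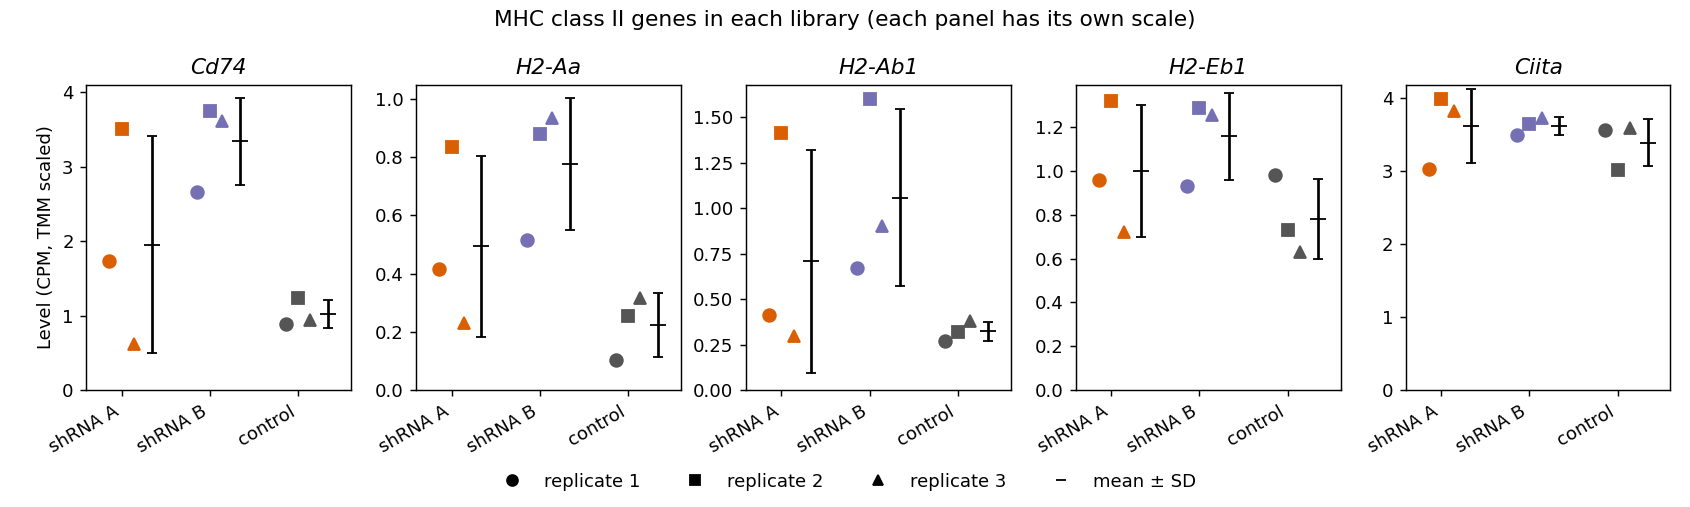
Level of each class II gene in each of the 9 libraries, in TMM-scaled CPM, with a panel and a scale for each gene that starts at 0. Symbols are replicates and bars are mean ± SD of 3 libraries. For Cd74, H2-Aa and H2-Ab1 all shRNA B libraries lie above all controls, while shRNA A overlaps both the controls and shRNA B, with Cd74 in shRNA A replicate 3 below all controls.

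Cd74, the invariant chain gene, had 54, 109 and 19 reads in shRNA A libraries 1 to 3, 103, 119 and 112 reads in shRNA B libraries and 26, 39 and 30 reads in controls. Scaled to library size this was 1.73, 3.51 and 0.622 CPM with shRNA A, 2.66, 3.74 and 3.60 CPM with shRNA B, and 0.882, 1.24 and 0.945 CPM in controls. All 3 shRNA B libraries lay above every control, whereas shRNA A replicate 2 reached the shRNA B range and shRNA A replicate 3 was the lowest of all 9 libraries. The log2 fold change was 1.70 ± 0.48 (SE) for shRNA B minus control, a 3.24-fold difference with a 95% interval from 1.52-fold to 6.88-fold (edgeR adjusted p = 0.181). For shRNA A minus control it was 0.93 ± 0.50, with an interval from -0.21 to 2.06 (adjusted p = 0.753). Neither passed the threshold of 0.05 over all genes.

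H2-Aa, the alpha chain gene of I-A, was the least covered of the 5, with 13, 26 and 7 reads with shRNA A, 20, 28 and 29 reads with shRNA B, and 3, 8 and 10 reads in controls. The levels were 0.415, 0.836 and 0.229 CPM with shRNA A, 0.517, 0.880 and 0.933 CPM with shRNA B, and 0.102, 0.255 and 0.315 CPM in controls. Control replicate 1 stood at the level of 3 reads, so that value rests on very few reads. Again every shRNA B library exceeded every control, and the shRNA A libraries overlapped the controls. H2-Aa had a log2 fold change of 1.75 ± 0.49 (SE) with shRNA B (edgeR adjusted p = 0.138) and 1.12 ± 0.52 with shRNA A (adjusted p = 0.729). Without control replicate 1 the shRNA B value was 1.42, and without control replicate 3 it was 2.06.

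H2-Ab1, the beta chain partner of H2-Aa, was at 0.415, 1.42 and 0.295 CPM with shRNA A, 0.672, 1.60 and 0.901 CPM with shRNA B, and 0.271, 0.318 and 0.378 CPM in controls. These levels came from 13, 44 and 9 reads with shRNA A, 26, 51 and 28 reads with shRNA B, and 8, 10 and 12 reads in controls. Replicate 2 was the highest library in both shRNA groups, and shRNA A replicate 3 lay among the controls. For H2-Ab1 this gave log2 fold changes of 1.69 ± 0.57 (SE) with shRNA B (edgeR adjusted p = 0.251) and 1.12 ± 0.61 with shRNA A (adjusted p = 0.751). Without shRNA A replicate 2 the shRNA A value was 0.14, against 0.20 for Cd74 and 0.51 for H2-Aa under the same omission. The shRNA B value of H2-Ab1 was 1.58 without control replicate 1 and 1.81 without control replicate 3. Over all omissions of 1 library it ran from 1.26 without shRNA B replicate 2 to 1.94 without shRNA B replicate 1.

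H2-Eb1, the I-E beta chain gene, showed differences that were smaller in value. Its levels were 0.959, 1.32 and 0.720 CPM with shRNA A, 0.931, 1.29 and 1.26 CPM with shRNA B, and 0.984, 0.732 and 0.630 CPM in controls, from 20 to 41 reads a library. Replicate 2 was again the highest shRNA A library, but control replicate 1 lay above shRNA B replicate 1, so the groups overlapped in both comparisons. Its log2 fold change came to 0.56 ± 0.27 (SE) with shRNA B, with a 95% interval from -0.036 to 1.16 (edgeR adjusted p = 0.421), and 0.36 ± 0.28 with shRNA A (adjusted p = 0.822). The shRNA A value was 0.11 without shRNA A replicate 2, 0.55 without control replicate 1 and 0.22 without control replicate 3. The shRNA B value was 0.75 without control replicate 1 and 0.42 without control replicate 3. H2-Ea-ps, the defective I-E alpha gene of this background, had 0 counts in all 9 libraries, which allows at most the level of 3 reads.

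Ciita, the coactivator gene, was the most evenly measured of the 5. It stood at 3.04, 3.99 and 3.83 CPM with shRNA A, 3.49, 3.65 and 3.73 CPM with shRNA B, and 3.56, 3.02 and 3.59 CPM in controls, from 95 to 135 reads a library. The 3 groups overlapped throughout. The log2 fold change was 0.09 ± 0.14 (SE) for each shRNA minus control, and the 95% intervals, -0.22 to 0.40 with shRNA A and -0.21 to 0.40 with shRNA B, span 0.860-fold to 1.32-fold and 0.862-fold to 1.32-fold (edgeR adjusted p = 0.914 and 0.847). Dexi, a protein-coding gene on the opposite strand, shares 329 exon bases with Ciita in GENCODE M21, 3.45% of Ciita's exon length, and had 1047 to 1465 reads a library. The libraries did not keep strand, so reads in the shared stretch cannot be assigned to either gene, and the part of Dexi in Ciita's count was not tested. Mir5107 shares 12 bases, 0.715% of exon length, with Cd74.

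**Figure D2:**
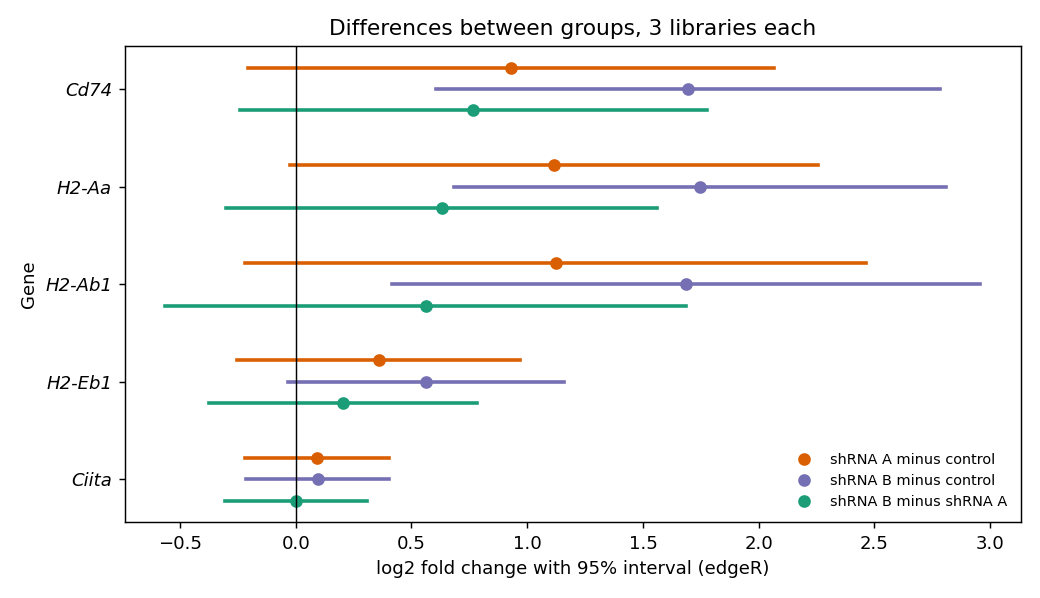
Log2 fold changes of the 5 genes with 95% intervals from edgeR, of each shRNA minus control and of shRNA B less shRNA A, with 3 libraries a group. The shRNA B intervals of Cd74, H2-Aa and H2-Ab1 lie above 0, and those of Ciita lie between -0.31 and 0.40 in all 3 comparisons.

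Counted over the 5 genes, edgeR called 0 for shRNA A minus control, where it called 0.0243% of all 16438 genes tested higher, and 0 of the 5 were higher at an unadjusted p under 0.05, against 3.52% of all genes. In 0 of the 5 did all shRNA A libraries lie above the controls, as they did in 6.84% of all genes. DESeq2 and limma-voom also called 0 of the 5 with shRNA A, where DESeq2 called 0.116% of its genes higher. For shRNA B minus control edgeR called 0 of the 5, against 0.779% of all genes called higher, and 3 of the 5 had an unadjusted p under 0.05 and were higher, against 6.41% of all genes. Those 3, Cd74, H2-Aa and H2-Ab1, were also the ones whose shRNA B libraries all lay above the controls, as did those of 9.27% of all genes. The median log2 fold change of the 5 was 0.93 with shRNA A and 1.69 with shRNA B, where the medians of all genes were 0.00023 and 0.0013. The 2 comparisons share the control libraries.

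Whether Cd74 passed with shRNA B depended on the tool and on the libraries that set the spread. DESeq2 called it (adjusted p = 0.00525), where it called 1.42% of its genes higher, and limma-voom did not (adjusted p = 0.154). With edgeR it passed in a fit to the shRNA B and control libraries alone (adjusted p = 0.0299), without shRNA A replicate 2 (adjusted p = 0.0435) and without shRNA A replicate 3 (adjusted p = 0.0289). Its log2 fold change stayed between 1.60 and 1.86 in all 17 alternatives, and its adjusted p ranged from 0.00525 to 0.458. In the authors' deposited table, Cd74 has log2 fold changes of 0.93 with shRNA A and 1.70 with shRNA B. The likelihood ratio test over the 3 groups in the authors' deposited table gives it an adjusted p of 0.0177, a test that called 2.51% of the genes with an adjusted p there. That table gives H2-Ab1, H2-Eb1 and Ciita adjusted p of 0.226, 0.832 and 0.994, and H2-Aa a p of 0.00866 with no adjusted value.

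Taking both hairpins as one, the mean of both shRNAs minus control gave log2 fold changes of 1.31 ± 0.44 (SE) for Cd74, 1.43 ± 0.45 for H2-Aa and 1.4 ± 0.53 for H2-Ab1, with edgeR adjusted p of 0.351, 0.284 and 0.4. H2-Eb1 and Ciita had 0.46 ± 0.24 and 0.09 ± 0.12. EdgeR called 0 of the 5 against 0.073% of all genes called higher, and 3 of the 5 had an unadjusted p under 0.05 and were higher, against 5.22% of all genes. In 0 of the 5 were all shRNA libraries above all controls, against 2.51% of all genes. DESeq2 called 1, Cd74 (adjusted p = 0.0374; 0.874% of its genes were called higher), and limma-voom 0.

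The hairpins were also compared directly. The log2 difference of shRNA B minus shRNA A was 0.77 ± 0.45 (SE) for Cd74, with a 95% interval from -0.24 to 1.77. It was 0.63 ± 0.43 for H2-Aa, 0.56 ± 0.51 for H2-Ab1, 0.20 ± 0.27 for H2-Eb1 and 0.0016 ± 0.14 for Ciita, whose sign turned in 6 of 17 alternatives. None of the 5 passed (edgeR adjusted p between 0.659 and 0.998), and none had an unadjusted p under 0.05 where 4.55% of all genes had one and were higher. In 0 of the 5 did shRNA B lie wholly above shRNA A, against 7.29% of all genes. DESeq2, which called 0.459% of its genes higher, and limma-voom called 0 of the 5 as well. The intervals include no difference and reach a 3.42-fold excess with shRNA B for Cd74, 2.95-fold for H2-Aa and 3.22-fold for H2-Ab1. Single libraries moved these values. Cd74 had 0.35 without shRNA A replicate 3 and 1.50 without shRNA A replicate 2. H2-Aa had 0.29 and 1.24 under the same omissions, and H2-Ab1 had 0.14 without shRNA B replicate 2 and 1.55 without shRNA A replicate 2. H2-Eb1 had 0.017 without shRNA A replicate 3 and 0.45 without shRNA A replicate 2.

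Cd74, H2-Aa and H2-Ab1 were most uneven in value among the shRNA A libraries. The highest shRNA A library exceeded the lowest by 5.64-fold for Cd74, 3.65-fold for H2-Aa and 4.81-fold for H2-Ab1. For Cd74 the same ratio was 1.41-fold in shRNA B and 1.41-fold in controls, and for H2-Ab1 it was 2.39-fold in shRNA B and 1.39-fold in controls. H2-Aa had 1.80-fold in shRNA B and 3.09-fold in controls, where counts were lowest. Ciita varied by 1.31-fold in shRNA A, 1.07-fold in shRNA B and 1.19-fold in controls.

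The proportions among Cd74, H2-Aa and H2-Ab1 were compared within libraries. Cd74 had 1.19 to 2.08 reads for each read of H2-Aa and H2-Ab1 together with shRNA A, 1.51 to 2.24 with shRNA B and 1.36 to 2.36 in controls, ranges that overlap. H2-Ab1 had 1.0 to 1.69 reads for each H2-Aa read with shRNA A, 0.966 to 1.82 with shRNA B and 1.2 to 2.67 in controls, where the highest ratio rests on 3 H2-Aa reads. The 3 genes together summed to 2.56, 5.76 and 1.15 CPM in shRNA A, 3.85, 6.23 and 5.44 CPM in shRNA B and 1.25, 1.81 and 1.64 CPM in controls. As a measure of likeness, the root mean square difference between profiles of log2 CPM over the 9 libraries, each centred on its mean, was 0.35 to 0.37 among these 3 genes. It was 0.59 to 0.65 between each of them and H2-Eb1, 0.79 to 0.88 between each of them and Ciita, and 0.32 between H2-Eb1 and Ciita. By this measure profiles that move little lie near each other, whatever the order of their libraries. The 0.32 therefore does not show that H2-Eb1 and Ciita share a pattern.

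Divided by exon length, the order of levels in controls was Cd74, H2-Eb1, Ciita, H2-Ab1 and H2-Aa. Their levels there were 0.609 ± 0.114, 0.402 ± 0.0937, 0.356 ± 0.0334, 0.126 ± 0.0208 and 0.0589 ± 0.0289 CPM per kilobase (SD, n = 3). By mean ± SD, H2-Eb1 and Ciita thus did not differ beyond their spread, and Cd74 and H2-Eb1 overlapped narrowly. With shRNA B, Cd74 stood at 1.99 ± 0.350, H2-Eb1 at 0.596 ± 0.102, H2-Ab1 at 0.412 ± 0.189, Ciita at 0.380 ± 0.0129 and H2-Aa at 0.205 ± 0.0597 CPM per kilobase. There H2-Ab1 overlapped both H2-Eb1 and Ciita within the spread, while H2-Eb1 lay above Ciita. With shRNA A, Cd74 averaged 1.16 ± 0.867, H2-Eb1 0.514 ± 0.155, Ciita 0.379 ± 0.0536, H2-Ab1 0.276 ± 0.240 and H2-Aa 0.130 ± 0.0819 CPM per kilobase, and each overlapped its neighbour in this order. These overlaps set aside that the genes were measured in the same libraries, so they do not show that genes were level within a library. Lengths are all exon bases of a gene in GENCODE M21, which is not the annotation behind the counts.

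**Figure D3:**
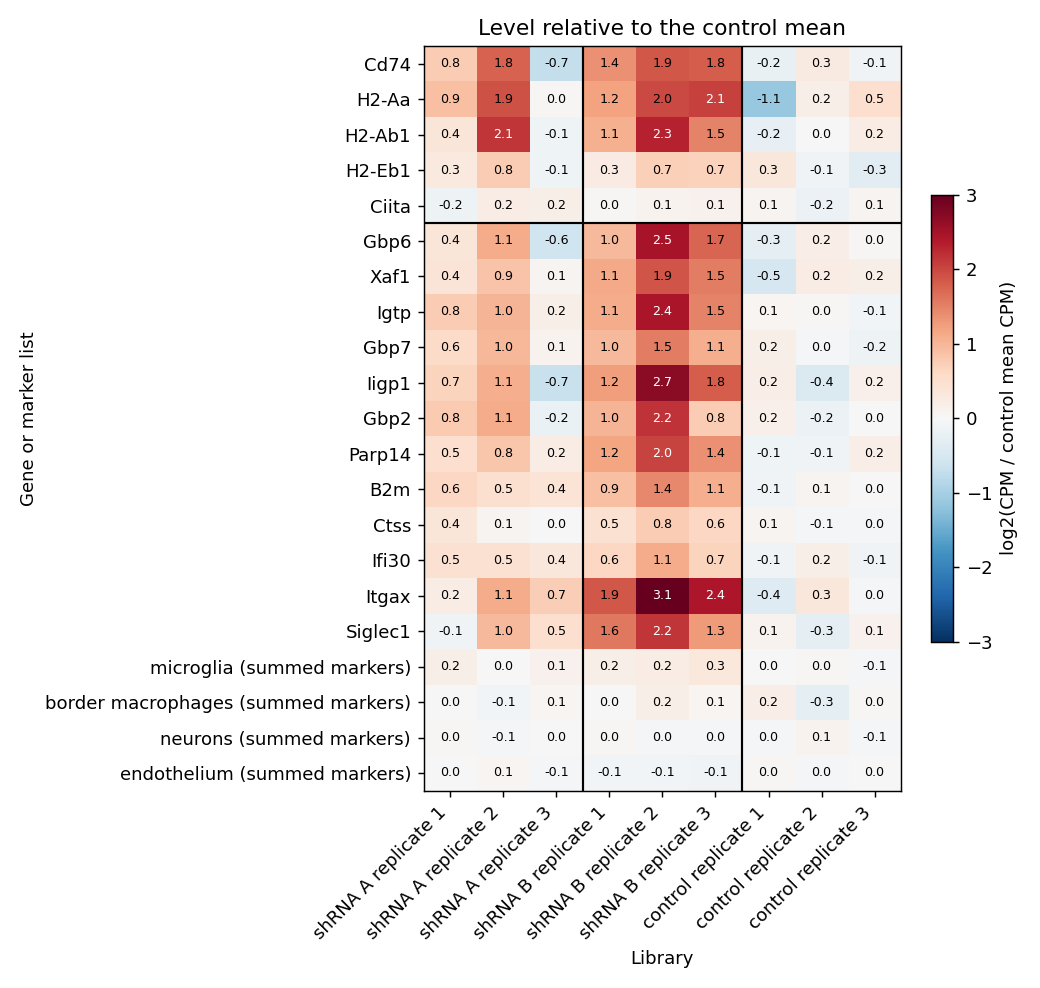
Log2 of each library's CPM over the control mean for the 5 class II genes, for genes with similar profiles, for 5 genes of class I, class II processing or marker lists, and for the summed markers of microglia, border macrophages, neurons and endothelium. EdgeR called each of those 5 listed genes higher with shRNA B, so they do not stand for their lists. Itgax and Siglec1 come from the dendritic and border macrophage lists, whose shRNA B medians were -0.25 and -0.02. These 4 sums lie within 0.31 of 0, while Cd74, H2-Aa and H2-Ab1 reach 1.78 to 2.13 in shRNA A replicate 2 and 1.87 to 2.31 in shRNA B replicate 2. The most abundant gene was Stab1 in the border macrophage sum and Camk2a in the neuron sum. Sums of the other marker lists are not shown.

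The genes whose profiles lay nearest to Cd74, among 14518 genes averaging 1 CPM or more, were Gbp6, Xaf1, Igtp, Gbp7 and Iigp1, with root mean square differences of 0.34 to 0.45 on the log2 scale. The median over all genes was 0.91, close to the 0.88 of Ciita, whose level moved little. Nearest to H2-Ab1 were Gbp6, Gbp2, Igtp, Xaf1 and Parp14, at 0.36 to 0.41, with a median of 0.85 over all genes. The Gbp genes, Igtp and Iigp1 encode GTPases that interferons induce. Gbp6, nearest to both, was at 1.15, 1.93 and 0.589 CPM with shRNA A, at 1.76 to 4.94 CPM with shRNA B and at 0.746 to 1.02 CPM in controls. Relative to the control mean, Cd74, H2-Aa and H2-Ab1 stood at 3.43-fold, 3.74-fold and 4.39-fold in shRNA A replicate 2, and the 7 nearest genes at 1.77-fold to 2.18-fold. In shRNA B replicate 2 Cd74, H2-Aa and H2-Ab1 stood at 3.66-fold to 4.97-fold and the 7 nearest genes at 2.90-fold to 6.51-fold. The 7 genes were picked for nearness over these same libraries. That they rise in the same libraries follows from the choice and is no separate result.

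Among the other class II loci, H2-DMa and the H2-DMb genes make the DM factor that loads peptide, and H2-Oa and H2-Ob make its inhibitor DO. H2-Eb2 and H2-Ea-ps, the other two of the 7 loci listed, belong to the I-E chains and were too low to test. The 5 DM and DO genes were tested, and edgeR called 0 in either comparison, with 0 at an unadjusted p under 0.05 and 0 by DESeq2 or limma-voom. H2-DMa was at 13.6 ± 0.578 CPM with shRNA A, 13.7 ± 1.31 CPM with shRNA B and 14.5 ± 1.41 CPM in controls (SD, n = 3). H2-DMb1 was at 0.743 ± 0.122 CPM with shRNA A, 1.26 ± 0.293 CPM with shRNA B and 0.852 ± 0.235 CPM in controls, with a log2 fold change of 0.56 ± 0.27 (SE) for shRNA B (adjusted p = 0.407). The median log2 fold change of the 5 was -0.09 with shRNA A and 0.10 with shRNA B.

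**Figure D4:**
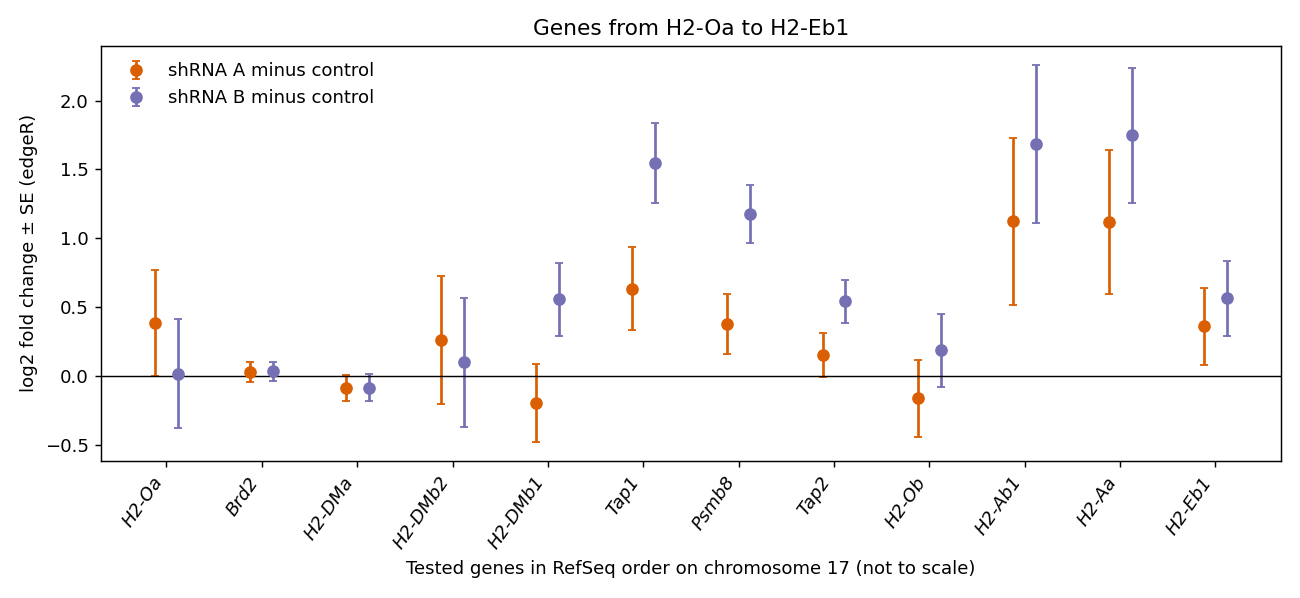
Log2 fold change ± SE from edgeR of the tested genes between H2-Oa and H2-Eb1 in their RefSeq order on chromosome 17, with equal spacing and not to scale. With shRNA B, Tap1, Psmb8, H2-Ab1 and H2-Aa have values above 1, while H2-Oa, Brd2, H2-DMa, H2-DMb2 and H2-Ob lie within 0.19 of 0.

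These loci lie next to H2-Ab1, H2-Aa and H2-Eb1 on chromosome 17, mixed with genes of class I processing. The stretch from H2-Oa to H2-Eb2 was chosen by position after values had been seen. Of its 14 protein-coding genes in RefSeq order, 12 were tested, and 2 were called higher with shRNA B, against 0.779% of all genes. These were Tap1, a subunit of the class I peptide transporter, at a log2 fold change of 1.55 ± 0.29 (SE, edgeR adjusted p = 0.045), and Psmb8, an immunoproteasome subunit, at 1.17 ± 0.21 (adjusted p = 0.0262). Tap2, the partner of Tap1, had 0.54 ± 0.16 (adjusted p = 0.151). H2-Ob, between Tap2 and H2-Ab1, had 0.19 ± 0.27.

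Among genes whose products cleave the invariant chain, prepare peptides or turn class II over, 2 passed the test with shRNA B. Of 9 genes, all tested, edgeR called 2 higher with shRNA B and 0 lower, against 0.779% and 0.237% of all genes. DESeq2 called 3 higher, against 1.42% of its genes, and limma-voom 1, where it called 74 of 16438 genes higher. Ctss, the protease cathepsin S that trims the invariant chain in antigen-presenting cells, was at 68.8, 56.3 and 53.1 CPM with shRNA A, 73.2, 90.3 and 81.4 CPM with shRNA B, and 56.5, 50.8 and 52.0 CPM in controls. It rose with shRNA B by a log2 fold change of 0.62 ± 0.10 (SE, edgeR adjusted p = 0.022). Ifi30, the lysosomal thiol reductase GILT, rose with shRNA B by 0.80 ± 0.16 (adjusted p = 0.0429), to 4.0 ± 0.786 CPM with shRNA B, against 2.29 ± 0.254 CPM in controls (SD, n = 3). Ctsd, cathepsin D, had 0.34 ± 0.08 (adjusted p = 0.0552), and March1, whose ligase removes class II from the surface, had -0.12 ± 0.08 (adjusted p = 0.576). With shRNA A the list had 0 called by edgeR, DESeq2 or limma-voom. At an unadjusted p under 0.05, 1 was higher with shRNA A, Ifi30 at 0.42 ± 0.17, against 3.52% of all genes. With shRNA B 6 of the 9 were higher at an unadjusted p under 0.05, against 6.41% of all genes. The list medians were 0.09 with shRNA A and 0.19 with shRNA B.

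Upstream of the class II genes, the promoter factors and genes of the interferon gamma path were read. Of 11 genes for partners of CIITA on the promoter, edgeR, DESeq2 and limma-voom called 0 in either comparison, and 1, Nfyb, had an unadjusted p under 0.05, at a log2 fold change of -0.20 ± 0.08 (SE) with shRNA B. Rfx5, a subunit of the X box factor, was at 27.3 CPM with shRNA A, 27.7 CPM with shRNA B and 27.0 CPM in controls. The list medians were 0.01 with shRNA A and -0.05 with shRNA B. Ifng, the gene of interferon gamma itself, had 0 counts in all 9 libraries. Irf1, which acts on the interferon-responsive Ciita promoter, had log2 fold changes of -0.19 ± 0.16 (SE) with shRNA A and 0.04 ± 0.16 with shRNA B (edgeR adjusted p = 0.833 and 0.948).

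Costimulatory genes, whose products give T cells their second signal, had 5 of 7 members tested and 0 called by edgeR, DESeq2 or limma-voom. With shRNA A 1 was lower at an unadjusted p under 0.05, Icosl at a log2 fold change of -0.30 ± 0.12 (SE), and with shRNA B 0 were. Cd86 had 0.40 ± 0.20 with each shRNA (edgeR adjusted p = 0.741 with shRNA A and 0.442 with shRNA B). The list medians were -0.07 with shRNA A and 0.17 with shRNA B. CD74 also serves as a receptor for the cytokine MIF. Of 5 genes for its ligands and co-receptors, 4 were tested and 0 called by any of the 3 tools, with 0 at an unadjusted p under 0.05 and medians of 0.04 with shRNA A and 0.09 with shRNA B. Mif was at 52.8 ± 10.5 CPM with shRNA A, 53.2 ± 3.33 CPM with shRNA B and 51.5 ± 6.61 CPM in controls (SD, n = 3).

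Class I genes were set beside the class II genes as another arm of antigen presentation, of which Nlrc5 is the coactivator, a relative of CIITA. With shRNA B edgeR called 4 of 5 higher, B2m, H2-K1, H2-D1 and Tap1, with log2 fold changes of 1.16 to 1.56, against 0.779% of all genes called higher. DESeq2 called 5, against 1.42% of its genes, and limma-voom 3, where it called 74 of 16438 genes higher. All 5 were higher at an unadjusted p under 0.05, against 6.41% of all genes. With shRNA A edgeR and limma-voom called 0 and DESeq2 called 1, B2m, while 2 were higher at an unadjusted p under 0.05, against 3.52% of all genes. Nlrc5 was at 0.383, 0.483 and 0.0327 CPM with shRNA A, 0.414, 1.76 and 0.676 CPM with shRNA B, and 0.170, 0.0955 and 0.220 CPM in controls. Its log2 fold change with shRNA B was 2.5 ± 0.76 (SE, edgeR adjusted p = 0.197), and its shRNA B libraries lay above the controls, which those of Ciita did not. B2m in shRNA A stood at 1.32-fold to 1.55-fold of the control mean in all 3 libraries, and Cd74 at 0.61-fold to 3.43-fold. The medians of the 5 were 0.63 with shRNA A and 1.55 with shRNA B.

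Markers of cells that can carry class II were read in the same libraries. In bulk tissue, more cells of a type and more RNA per cell cannot be told apart. Of 14 microglia markers, edgeR called 1 higher with shRNA B, C1qa, against 0.779% of all genes, and 9 were higher at an unadjusted p under 0.05, against 6.41% of all genes. The median was 0.20. Limma-voom, which called 74 of 16438 genes higher, called C1qa, and DESeq2, which called 1.42% of its genes higher, called C1qa and Trem2. The sum of the 14 markers was 557 to 635 CPM with shRNA A, 630 to 695 CPM with shRNA B and 539 to 578 CPM in controls. In shRNA A replicate 2, where Cd74, H2-Aa and H2-Ab1 were 3.43-fold to 4.39-fold of the control mean, the microglia sum was 557 CPM, within the control range. With shRNA A 0 microglia markers were called by any of the 3 tools, 2 were higher at an unadjusted p under 0.05, against 3.52% of all genes, and the median was 0.10.

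Border macrophage markers, 9 of 10 tested, summed to 32.0 to 35.2 CPM with shRNA A, 33.9 to 38 CPM with shRNA B and 28.1 to 39.0 CPM in controls, with medians of -0.003 with shRNA A and -0.02 with shRNA B. Most of that sum was Stab1, which averaged 24.6 CPM with shRNA A, 25.7 CPM with shRNA B and 24.3 CPM in controls. Siglec1, a surface lectin that interferon induces in macrophages, was the 1 called, against 0.779% of all genes called higher with shRNA B by edgeR. Its log2 fold change was 1.71 ± 0.33 (SE) for shRNA B (edgeR adjusted p = 0.0361), while Mrc1 and Cd163, which mark border macrophages, had -0.05 ± 0.20 and 0.00 ± 0.25. Of 9 dendritic cell markers 5 were tested, and Itgax, which activated microglia also express, rose with shRNA B by 2.5 ± 0.36 (adjusted p = 0.0109). Flt3, the dendritic growth factor receptor, had -0.43 ± 0.09 with shRNA B (edgeR adjusted p = 0.0552) and was called lower by DESeq2 there and for the mean of both shRNAs. Xcr1, Cd209a and Ccr7 averaged 0.0106 to 0.0538 CPM in each group, less than 3 reads stand for. The dendritic list summed to 16.6 to 18.5 CPM with shRNA A, 16.8 to 19.7 CPM with shRNA B and 19.8 to 23.0 CPM in controls, with medians of -0.01 with shRNA A and -0.25 with shRNA B. Most of that sum was Flt3, which averaged 12.3 CPM with shRNA A, 11.6 CPM with shRNA B and 15.6 CPM in controls. The sum is thus mainly a reading of Flt3.

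Most lymphocyte and monocyte markers did not pass the filter on low counts. Of 10 T and NK cell markers 1 was tested, Lck, and the list summed to 1.31 to 2.16 CPM with shRNA A, 1.73 to 2.80 CPM with shRNA B and 1.66 to 2.36 CPM in controls. Lck alone averaged 1.41 CPM with shRNA A, 1.36 CPM with shRNA B and 1.51 CPM in controls. Of 6 B cell markers 0 were tested, and they summed to 0.524 to 0.927 CPM with shRNA A, 0.579 to 1.23 CPM with shRNA B and 0.373 to 0.472 CPM in controls. Of 5 monocyte markers 1 was tested, Ly6c2, and their sums were 1.61 to 2.40 CPM with shRNA A, 0.597 to 2.57 CPM with shRNA B and 1.81 to 2.07 CPM in controls. Ly6c2 alone averaged 1.93 CPM with shRNA A, 1.53 CPM with shRNA B and 1.78 CPM in controls. EdgeR, DESeq2 and limma-voom called neither Lck nor Ly6c2, and neither had an unadjusted p under 0.05. Endothelial markers, all 5 tested, had medians of -0.01 with shRNA A and -0.07 with shRNA B and 0 called by any of the 3 tools, with 0 and 1 at an unadjusted p under 0.05.

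Among the remaining marker lists, the astrocyte list had medians of 0.05 with shRNA A and -0.01 with shRNA B and edgeR and limma-voom called 1 of 5 higher with shRNA B, Aldh1l1. EdgeR called 0.779% of all genes higher there, and limma-voom 74 of 16438 genes. DESeq2 also called Gfap higher and Gja1 lower, where it called 1.42% of its genes higher and 162 genes lower. Gfap, a filament gene of reactive astrocytes, was at 785 ± 156 CPM with shRNA B, against 503 ± 60.0 CPM in controls, and Gja1, a gap junction gene, was at 243 ± 43.3 CPM with shRNA B, against 339 ± 17.6 CPM in controls (SD, n = 3; edgeR adjusted p = 0.0608 and 0.0614). The 7 neuron markers had medians of -0.05 with shRNA A and -0.07 with shRNA B and 0 called by any of the 3 tools, with 1 lower with shRNA A and 0 with shRNA B at an unadjusted p under 0.05. All 6 markers of meninges and fibroblasts had negative values, with medians of -0.60 with shRNA A and -0.68 with shRNA B and 1 called lower with shRNA B by edgeR and DESeq2, Slc6a13. EdgeR called 0.237% of all genes lower there. At an unadjusted p under 0.05, 5 of the 6 were lower with shRNA A and 3 with shRNA B. The 5 choroid plexus markers had medians of -3.97 with shRNA A and -3.24 with shRNA B and 0 called by any of the 3 tools, with 1 lower at an unadjusted p under 0.05 for each shRNA. The share of all genes lower at that unadjusted p is not given here. Counts of listed genes lower at it, in this and the earlier lists, therefore have no background. Without control replicate 3 Cd74 with shRNA B had a log2 fold change of 1.63, and without control replicate 1 it had 1.60. The part of any of these cell types in the class II values was not tested.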

How the data were processed

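Counts, log2 fold changes, their standard errors and likelihood ratio test scores, p-values and mean normalized signals come from one table that the authors deposited, per the file headers. Its counts are raw reads per Ensembl gene. The submitters' processing notes name build mm9, TopHat 1.4.1 and HTSeq 0.6.1, with DESeq2 1.4.5 in R 3.1.1 and SAMtools 0.1.19; settings and gene annotation are not given in the sources used here. Libraries were made without strand information from 1.5 µg of RNA.

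Here, counts were tested with edgeR 4.0.16 in R 4.3.3: filterByExpr (16438 genes), TMM scaling and the robust quasi-likelihood test on all 9 libraries, two-sided, with Benjamini-Hochberg adjustment over all genes. A log2 fold change has its size over the square root of F as standard error. CPM are per TMM-scaled library; 1 read is 0.0259 to 0.0339 CPM. Limits set by 3 reads cover counting error only, since PCR reads are not independent molecules. DESeq2 1.42.0 and limma 3.58.1 served as alternatives, and the fit was tested on simulated counts. Of the 2-fold changes set there it recovered 91% with shRNA A, 94% with shRNA B and 88.1% for shRNA B minus shRNA A. In the same order it recovered 65.7%, 73.1% and 68.7% of 1.5-fold changes, and 100% of 4-fold changes in each. False calls were 10 of 181, 14 of 192 and 17 of 188 calls. The median error over all comparisons was 0.063 to 0.0836 log2, while Cd74, H2-Aa and H2-Ab1 had standard errors of 0.48 to 0.61 against control. The simulation thus does not tell how often changes in these 3 genes would be called. Members, lists, the naming rule (all members, listed genes, Camta1 and the 5 genes nearest to Cd74 and to H2-Ab1) and alternatives were chosen with earlier results of these data known. All 136 list entries matched a row, March1 and Chil3 by identifier. No 2 libraries of a group agreed within counting noise (chi-square per degree of freedom 8.32 to 22.1). Replicate numbers gave no pairing: deviations of same-numbered libraries correlated at -0.128 to 0.273. One gene of the interferon gamma list, and the counts of that list, are not reported here.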

Additional observations from a re-analysis of the deposited data

How the results depend on the processing

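None of the class II genes was called with shRNA A in any of the 17 alternatives. With shRNA B the count was 1, Cd74, in DESeq2 and in the fit to the compared groups alone, 0 in the other alternatives with all libraries, and 0 to 1 when 1 library was left out. For the mean of both shRNAs it was 1 in DESeq2, and for shRNA B minus shRNA A it was 0 throughout. In the fit to shRNA A and control alone H2-Aa did not pass the filter on low counts.

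The number of genes called in all moved more. With shRNA A it was 4, against 9 with no low-count filter, 43 with DESeq2, 0 with limma-voom, 2 with robust estimation off, 18 in the fit to the compared groups and 0 to 10 with 1 library left out. With shRNA B it was 167, against 386 with DESeq2, 95 with limma-voom, 42 in the fit to the compared groups and 13 to 217 with 1 library left out. For the mean of both it was 16, against 67 with no filter, 243 with DESeq2, 31 with the replicate block and 1 to 52 with 1 library left out. For shRNA B minus shRNA A it was 0, against 21 with no filter, 123 with DESeq2, 1 with the replicate block and 0 to 110 with 1 library left out; 748 genes were higher at an unadjusted p under 0.05. The cause of these moves was not tested.

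With the replicate number as a block, Cd74 had a log2 fold change of 1.73 with shRNA B (edgeR adjusted p = 0.128) and no call on a class II gene changed; 0 of 9 libraries correlated best with their own number in both other groups. The shRNA B minus shRNA A value of Ciita, 0.0016, turned to -0.00015 with DESeq2 size factors, -0.00036 with DESeq2, -0.00024 in the fit to the compared groups, -0.11 without shRNA A replicate 1, -0.0037 without shRNA B replicate 2 and -0.020 without shRNA B replicate 3, a range of -0.11 to 0.077 with 1 library left out. The signs of the class II genes held otherwise. Depth limits H2-Aa and H2-Ab1 most, with 3 to 12 reads in each control.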
